A study of Homo sapiens with 18 samples.

Results

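The genes described are HMOX1, NQO1, GCLM, GCLC, TXNRD1, TXN, SRXN1, PRDX1 and NFE2L2, which code for NRF2 itself and for antioxidant enzymes it is known to control. They were taken by symbol from a table of 60658 Ensembl gene identifiers. All 9 of 9 were found, each under 1 identifier, and all 9 were among the 17555 genes that reached 1 FPKM (fragments mapped to a transcript, scaled by its length and by the size of the library) in at least 3 libraries. The rule that took them uses the symbol alone, but the 9 symbols were chosen with earlier results of these data known. Counts of them set beside the share of all genes below are thus not those of a set chosen blind.

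NRF2, the product of NFE2L2, is a transcription factor that KEAP1 holds in the cytoplasm and passes to the proteasome. Oxidants and electrophiles that modify KEAP1 let NRF2 accumulate, pair with a small MAF protein and bind antioxidant response elements. NFE2L2 messenger RNA need not follow NRF2 activity, because the protein is regulated largely by its stability. In myeloid leukaemia cells, NRF2 is known as a buffer against oxidative stress and some drugs.

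The study used THP1, a human monocytic acute myeloid leukaemia line that its labels give as heterozygous for NRAS G12D, and B11, a subclone of THP1. B11 carries a lentiviral, doxycycline-inducible NRAS G12V with GFP that resists its CRISPR guides, and Cas9 with a puromycin resistance gene and a guide pair at the NRAS start codon. Its labels give it as heterozygous for NRAS G12V. Each line was grown for 5 days with 0, 1 (the low dose) or 10 ug/ml (the high dose) doxycycline in RPMI with 10% fetal bovine serum, and RNA was sequenced from 3 plates, A, B and C, per line and dose. The 6 groups thus hold 18 libraries. B11 is 1 clone, and the THP1 cultures carry no vector, so the clone, the vectors and the NRAS change cannot be told apart between the lines. Doxycycline was given to both lines, so THP1 shows the change with the drug alone. Plates of a line came from 1 grown culture, and p-values measure the spread between plates.

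Depth could be compared only in relative terms, and it ran from 0.842 to 1.22 times the typical library. In B11, NRAS was at 19.8, 21.98 and 21.1 FPKM without doxycycline, 24.4, 23.7 and 23.3 FPKM at the low dose and 27.99, 27.7 and 28.2 FPKM at the high dose. It rose by 0.40 (SE 0.07) on the log2(FPKM + 1) scale with the high dose (limma, adjusted p = 0.000276). Its difference with the low dose, 0.18, did not pass (limma, adjusted p = 0.0607), though the plates do not overlap. Against THP1, NRAS in B11 differed by -0.15 without doxycycline, which did not pass though the plates do not overlap (limma, adjusted p = 0.0994). At the high dose it was higher in B11 by 0.20 (adjusted p = 0.0419). Its change with the high dose exceeded that in THP1 by 0.35 (adjusted p = 0.0159). The gene-level value cannot tell the introduced from the native transcript. In B11 at the low dose, plates B and C stand apart: 1 identifier without a gene name held 6.51% and 3.76% of their summed FPKM. Summed FPKM of 10 monocytic markers ran from 3780 to 4622 in untreated B11, against 2252 to 2516 in untreated THP1 and 1808 to 1838 in B11 at the high dose. LYZ, the lysozyme gene, accounts for this contrast: it was at 3075, 2258 and 3009 FPKM in untreated B11, and the other 9 markers summed to 1503 to 1547, 1568 to 1749 and 1480 to 1563 FPKM in the same 3 groups. In B11 at the low dose those 9 summed to more, 2199 to 2223 FPKM, with FCER1G at 1474, 1496 and 1480 FPKM. The markers did not move together. With the high dose in B11, 2 of the 10 rose (ITGAM and FCER1G) and 5 fell (LYZ, CSF1R, CEBPA, CD33 and PTPRC). Of all genes, 21.6% rose and 21.3% fell. Between the untreated lines, 4 were higher in B11 (LYZ, CSF1R, CD33 and SPI1) and 3 lower (CD14, ITGAM and FCER1G). The shares of all genes there were 23.5% higher and 23.6% lower. CD68, a lysosomal protein abundant in macrophages, was at 1558, 1190 and 1451 FPKM in untreated B11, at most 319 FPKM in untreated THP1 and 502, 504 and 506 FPKM in B11 at the high dose. Among 5 macrophage markers CD68 held nearly all of the sum, and MRC1, which marks mature macrophages, was at or below 0.0736 FPKM in each library. CD163, another of them, was at most 0.160 FPKM in untreated B11 and at least 0.538 FPKM in untreated THP1. LYZ, CSF1R, CD33 and CD68 were higher in untreated B11 than in untreated THP1 and fell with the high dose. ITGAM and FCER1G were lower and rose. These markers differ between the same groups of B11 and THP1 as the antioxidant genes, and their part in the results was not tested. In bulk RNA, fewer cells of a kind and less RNA per cell cannot be told apart. Markers of T, B, erythroid, epithelial and fibroblast cells, 3 for each type, did not exceed 5.06 FPKM in any library.

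The 4 sequences below are from the glutamate-cysteine ligase genes, which moved in opposite directions, and from TXNRD1, which did not pass the test. Both GCLM and TXNRD1 hold the core letters of an antioxidant response element near a start site. They come from RefSeq on GRCh38.p14 and are written 5′ to 3′ on the gene's strand, with a match to TGACNNNGC on either strand in capitals. The GCLM stretch is chr1:93909431-93909550 (minus strand), the GCLC stretch chr6:53545102-53545221 (minus strand), and the TXNRD1 stretches chr12:104215659-104215778 and chr12:104286920-104286949 (plus strand). Annotated exons of the same gene cover 26 of the 120 bases for GCLM and 28 of 120 for GCLC. For TXNRD1 they cover 0 of 120 bases at the upstream start and all 30 bases at the downstream start.
GCLM: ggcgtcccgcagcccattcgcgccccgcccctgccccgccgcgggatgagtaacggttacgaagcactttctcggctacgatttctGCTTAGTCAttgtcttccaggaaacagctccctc
GCLC: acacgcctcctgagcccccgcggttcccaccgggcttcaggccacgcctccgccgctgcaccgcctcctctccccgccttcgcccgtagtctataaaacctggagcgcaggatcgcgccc
TXNRD1 upstream start: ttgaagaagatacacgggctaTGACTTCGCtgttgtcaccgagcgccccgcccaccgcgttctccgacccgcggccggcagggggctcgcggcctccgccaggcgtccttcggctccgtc
TXNRD1 downstream start: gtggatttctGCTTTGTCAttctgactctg

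RefSeq promoters, taken as 250 bases before to 50 bases after a start, were matched for 7 of the 9 genes and gave 9 promoters; HMOX1 and PRDX1 had no entry. TGACNNNGC was found in 3 of these 9, namely that of GCLM and both of TXNRD1, and in 13.3% of all 35116 promoters. TGANTCA, the AP-1 letters, which can overlap the first motif, was found in 0 of the 9 and in 7.71% of all promoters. GCLM holds TGACTAAGC on the other strand, and TXNRD1 holds TGACTTCGC on its own strand and TGACAAAGC on the other. A further TXNRD1 match, TGACGGAGC on the other strand, crosses the upstream start and lies partly outside the printed stretch, so it is not in capitals. No match was found for NQO1, TXN and SRXN1, which rose with the high dose in B11 as GCLM did, nor for GCLC and NFE2L2. A match is a run of letters in this window and no measure of binding. The window does not reach sites farther from a start, and whether the matches bear on the changes was not tested.

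With the high dose of doxycycline in B11, NQO1, GCLM, TXN, SRXN1 and PRDX1 rose and GCLC and NFE2L2 fell. Mean FPKM was 4.81 times the untreated mean for NQO1, 2.44 times for GCLM, 2.34 times for TXN, 2.27 times for PRDX1 and 2.15 times for SRXN1. For GCLC it was 0.332 times and for NFE2L2 0.734 times the untreated mean. Thus 7 of the 9 genes passed the test, 5 higher and 2 lower, where 42.8% of all genes tested passed (21.6% higher and 21.3% lower). The test was limma on log2(FPKM + 1), with a Benjamini-Hochberg adjusted p under 0.05 over all 17555 genes. The plates of the 2 doses do not overlap for these 7 genes, as in 50.6% of all genes. The median change was 0.99 over the 9 genes and -0.02 over all genes, on that scale. HMOX1 and TXNRD1 did not pass.

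**Figure D1:**
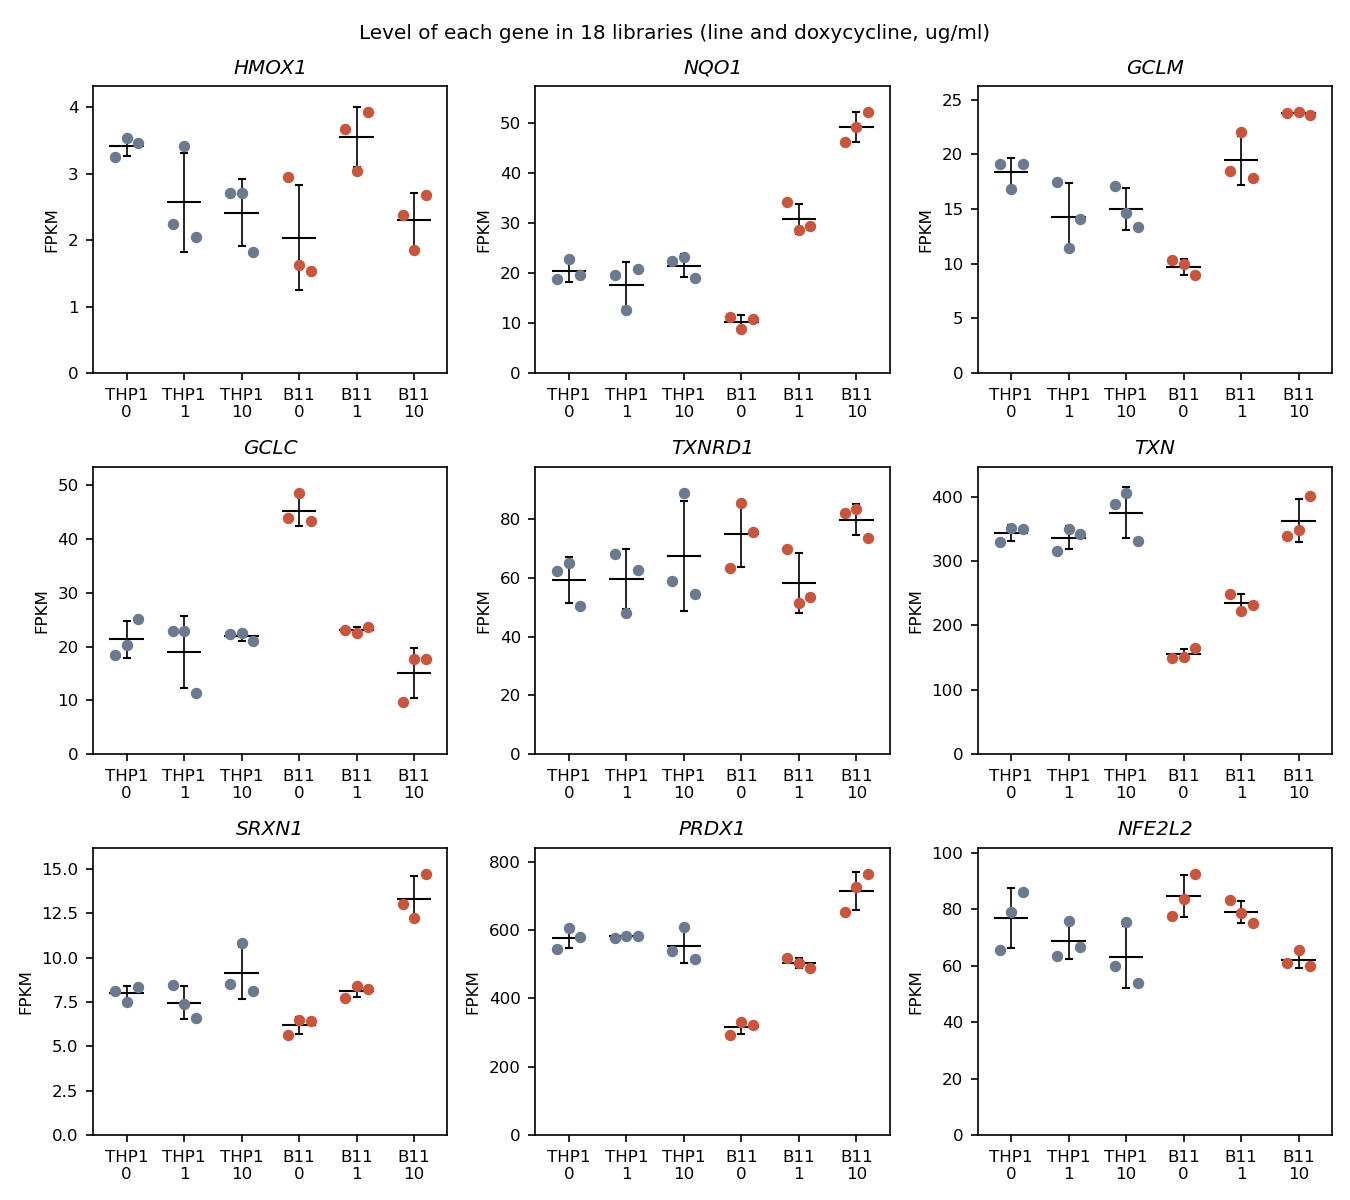
FPKM of each of the 9 genes in each of the 18 libraries, by line and doxycycline dose in ug/ml; points are plates and bars are group means with the SD over 3 plates. NQO1, TXN and PRDX1 climb with dose in B11 and lie level in THP1, while GCLC starts at 45.3 FPKM in untreated B11 and lies at 15.04 FPKM at 10 ug/ml.

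NFE2L2 (GRCh38 chromosome 2, 177227595 to 177392697, minus strand) codes for NRF2. In B11 it was at 77.6, 83.7 and 92.4 FPKM without doxycycline, 83.1, 78.5 and 75.2 FPKM at the low dose and 61.0, 65.7 and 59.7 FPKM at the high dose. All 3 plates at the high dose lie below all untreated plates, while those at the low dose overlap them. It fell by 0.44 (SE 0.12, adjusted p = 0.00878) with the high dose. In THP1 it was at 65.5, 79.0 and 86.2 FPKM without doxycycline and 59.8, 75.3 and 54.0 FPKM at the high dose. The THP1 difference of -0.29 did not pass, and the difference between the lines' dose changes, -0.15, did not pass either (adjusted p = 0.56). A fall of NFE2L2 particular to B11 is thus not shown. AGPS, a neighbour on the other strand that overlaps its exons, was at 11.6 to 24.2 FPKM, and whether the counting used strand is not stated in the labels.

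GCLM and GCLC code for the modifier and the catalytic subunit of glutamate-cysteine ligase, which carries out the rate-limiting step of glutathione synthesis. GCLM (chromosome 1, 93885205 to 93909456, minus strand) was at 10.3, 9.92 and 8.92 FPKM in untreated B11, 18.5, 22.01 and 17.8 FPKM at the low dose and 23.8, 23.9 and 23.6 FPKM at the high dose. The 3 dose groups do not overlap. It rose by 0.93 (adjusted p = 6.14e-05) with the low dose and by 1.21 (SE 0.13, adjusted p = 3.53e-06) with the high dose. The further step from the low to the high dose, 0.28, did not pass (adjusted p = 0.202).

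GCLC (chromosome 6, 53497341 to 53616970, minus strand) ran the other way. It was at 43.8, 48.6 and 43.4 FPKM in untreated B11, 23.0, 22.4 and 23.6 FPKM at the low dose and 9.67, 17.7 and 17.8 FPKM at the high dose. These groups do not overlap either, and plate A at the high dose lies well below plates B and C. GCLC fell by 0.94 (adjusted p = 0.00583) at the low dose and by 1.57 (SE 0.24, adjusted p = 7.78e-05) at the high dose. Without libraries B and C at the low dose the first of these did not pass (adjusted p = 0.0825).

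The ratio of GCLM to GCLC FPKM in untreated B11 was 0.215 ± 0.0177 (SD, n = 3). It was 0.846 ± 0.118 at the low dose and 1.71 ± 0.647 at the high dose. In THP1 it was 0.874 ± 0.143, 0.837 ± 0.379 and 0.681 ± 0.0702 at 0, 1 and 10 ug/ml. In transcript level, the catalytic subunit thus exceeded the modifier in all 3 untreated B11 plates, and the modifier exceeded the catalytic subunit in all 3 at the high dose. The highest ratio, 2.46, is that of plate A at the high dose, where GCLC was lowest.

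**Figure D2:**
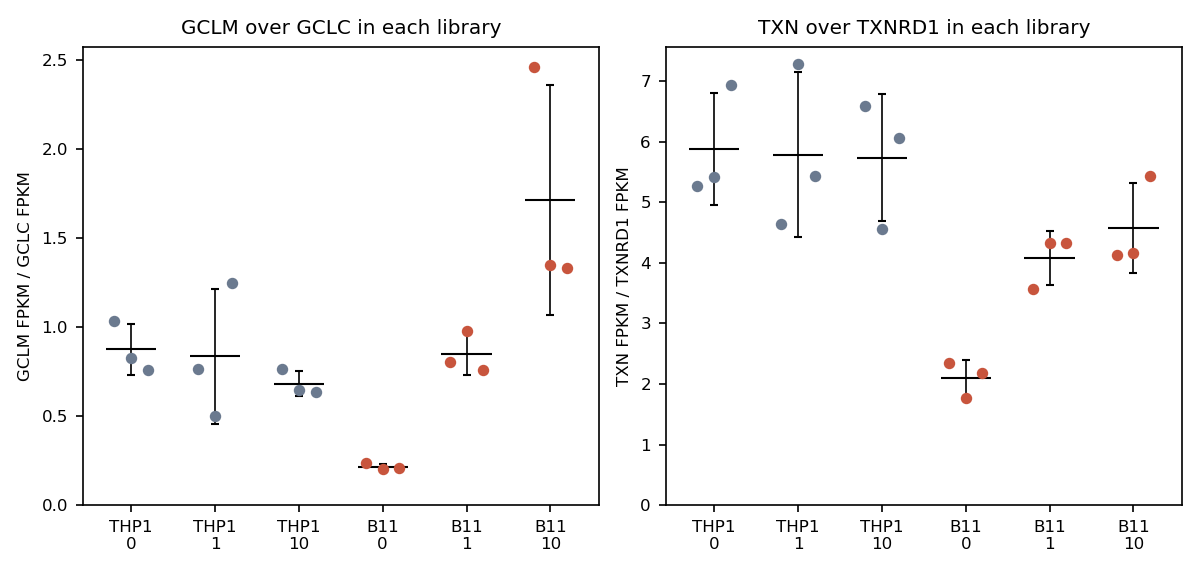
Ratio of GCLM to GCLC FPKM (left) and of TXN to TXNRD1 FPKM (right) in each library, by line and doxycycline dose in ug/ml; points are plates, bars the mean and SD over 3 plates. Untreated B11 is lowest in both panels, at a mean of 0.215 on the left and 2.10 on the right.

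NQO1 (chromosome 16, 69706996 to 69726951, minus strand) codes for a quinone reductase that is a standard readout of NRF2. In B11 it was at 11.2, 8.73 and 10.7 FPKM without doxycycline, 34.1, 28.5 and 29.4 FPKM at the low dose and 46.2, 49.1 and 52.1 FPKM at the high dose. No dose groups overlap. It rose by 1.50 (adjusted p = 2.75e-06) with the low dose, by 0.66 (adjusted p = 0.0125) from the low to the high dose and by 2.17 (SE 0.16, adjusted p = 4.06e-08) overall. Without libraries B and C at the low dose the middle step, 0.51, did not pass (adjusted p = 0.291). Nor did it without plate B at the low dose or plate C at the high dose alone (adjusted p = 0.0512 to 0.0522). In THP1 the 9 plates ran from 12.5 to 23.1 FPKM and the dose groups overlap.

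HMOX1 (chromosome 22, 35380361 to 35394214, plus strand) codes for haem oxygenase 1, which opens the haem ring and frees iron. It was low in every library, between 1.54 and 3.93 FPKM. In B11 it was at 2.95, 1.62 and 1.54 FPKM without doxycycline, 3.68, 3.05 and 3.93 FPKM at the low dose and 2.38, 1.85 and 2.68 FPKM at the high dose. The plates at the low dose lie above both other groups, which overlap each other. HMOX1 rose by 0.61 (adjusted p = 0.0256) at the low dose, and its difference at the high dose, 0.14 (SE 0.20), did not pass (adjusted p = 0.605). Without libraries B and C at the low dose the first was 0.65 and did not pass (adjusted p = 0.14). It also did not pass without untreated plate B or C, or low-dose plate A or C (adjusted p = 0.0679 to 0.0993). Unlike that of NQO1, its order of means over the doses thus has no step upwards from the low to the high dose.

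TXN codes for thioredoxin, the small protein that reduces disulfides, and TXNRD1 for the cytosolic reductase that recharges it with NADPH. TXN (chromosome 9, 110243811 to 110256640, minus strand) was at 149, 151 and 165 FPKM in untreated B11, 249, 222 and 232 FPKM at the low dose and 339, 348 and 401 FPKM at the high dose. The groups do not overlap, and each dose lies above the one before it. TXN rose by 0.59 (adjusted p = 4.07e-05) at the first step and by 0.62 (adjusted p = 0.000164) at the second. The overall rise was 1.22 (SE 0.08, adjusted p = 1.75e-08). A processed copy of TXN, TXNP6, was listed at 3.83 to 37.3 FPKM, so some reads of TXN may be assigned there.

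TXNRD1 (chromosome 12, 104215779 to 104350305, plus strand) did not follow TXN. It was at 63.5, 85.6 and 75.8 FPKM in untreated B11, 69.8, 51.3 and 53.6 FPKM at the low dose and 82.1, 83.6 and 73.7 FPKM at the high dose. The untreated plates overlap both treated groups. The difference with the high dose was 0.10 (SE 0.19, adjusted p = 0.712), and none of the 12 comparisons called TXNRD1 with all plates in the fit. The ratio of TXN to TXNRD1 FPKM was 2.10 ± 0.301 (SD, n = 3) in untreated B11, 4.08 ± 0.440 at the low dose and 4.58 ± 0.746 at the high dose. In THP1 its means were 5.88, 5.79 and 5.74.

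PRDX1 codes for a peroxiredoxin that removes hydrogen peroxide, and SRXN1 for sulfiredoxin, which restores peroxiredoxins whose cysteine has been over-oxidised. PRDX1 (chromosome 1, 45511036 to 45523047, minus strand) was at 293, 331 and 321 FPKM in untreated B11, 518, 504 and 489 FPKM at the low dose and 653, 726 and 764 FPKM at the high dose. It had the highest FPKM of the 9 genes in every library. The dose groups do not overlap, and PRDX1 rose by 0.68 (adjusted p = 2.63e-06), then by 0.50 (adjusted p = 0.000293), and by 1.18 overall (SE 0.07, adjusted p = 4.83e-09).

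SRXN1 (chromosome 20, 646615 to 653370, minus strand) was at 5.63, 6.50 and 6.45 FPKM in untreated B11, 7.72, 8.43 and 8.22 FPKM at the low dose and 13.03, 12.2 and 14.7 FPKM at the high dose. Its groups do not overlap, and the larger step in FPKM lies between 1 and 10 ug/ml. It rose by 0.34 (adjusted p = 0.037) at the first step, by 0.65 (adjusted p = 0.00266) at the second and by 0.99 (SE 0.12, adjusted p = 9.6e-06) overall. The first step did not pass without libraries B and C at the low dose (0.28, adjusted p = 0.316), nor when any 1 plate of either group was left out (adjusted p = 0.0509 to 0.123).

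With the low dose in B11, 7 of the 9 genes passed, 6 higher and 1 lower, where 37.1% of all genes passed (19.8% higher and 17.3% lower). The plates of the same 7 do not overlap, as in 47.5% of all genes. Without libraries B and C at that dose, 4 passed, all of them higher: NQO1, GCLM, TXN and PRDX1. From the low to the high dose, NQO1, TXN, SRXN1 and PRDX1 passed, all higher, where 12.8% of all genes passed (5.69% higher and 7.12% lower). Without libraries B and C, TXN and PRDX1 passed. In this step the groups of all 9 genes do not overlap, 6 higher and 3 lower, as in 34.0% of all genes. The comparisons at 1 and at the high dose share the untreated plates.

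In THP1 none of the 9 genes was called by limma at any dose. Of all genes, 1.02% were called with the high dose, 0.0114% with the low dose and 0.296% from the low to the high dose. At an unadjusted p under 0.05, 1 of the 9 passed with the high dose (NFE2L2), 1 with the low dose (GCLM) and 0 from the low to the high dose. The share of all genes under that unadjusted threshold is not given here. The smallest adjusted p was 0.406, 0.78 and 0.523 in these comparisons. PRDX1 was at 546, 606 and 580 FPKM in untreated THP1 and 540, 610 and 514 FPKM at the high dose, and TXN at 330, 352 and 349 FPKM and 389, 406 and 330 FPKM. Both overlap between the doses. HMOX1 was at 3.25, 3.53 and 3.47 FPKM without doxycycline and 2.71, 2.71 and 1.83 FPKM at the high dose. It is the single gene of the 9 whose untreated and 10 ug/ml plates do not overlap in THP1, as in 15.9% of all genes. None of the 9 is separate with the low dose or from the low to the high dose, against 10.5% and 13.4% of all genes. Its difference of -0.38 did not pass.

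The dose change in B11 was set against that in THP1 as a difference of differences. With the high dose it passed for 6 of the 9 genes, where 29.8% of all genes passed. The change in B11 exceeded that in THP1 by 2.09 (SE 0.22, adjusted p = 5.33e-06) for NQO1, 1.49 (SE 0.19, adjusted p = 2.98e-05) for GCLM and 1.24 (SE 0.10, adjusted p = 2.86e-07) for PRDX1. It was 1.10 (SE 0.12, adjusted p = 4.9e-06) for TXN and 0.83 (SE 0.17, adjusted p = 0.00197) for SRXN1. For GCLC the difference was -1.63 (SE 0.34, adjusted p = 0.00197). HMOX1, TXNRD1 and NFE2L2 did not pass.

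With the low dose the difference of differences passed for NQO1, GCLM, TXN, PRDX1 and HMOX1, all higher in B11, where 25.9% of all genes passed. For HMOX1 it was 0.93 (SE 0.28, adjusted p = 0.0232), and 0.98 with plate A alone for B11 at the low dose (adjusted p = 0.0861). This HMOX1 value did not pass without low-dose plate A or C of THP1, untreated plate B or C of B11 or low-dose plate C of B11 (adjusted p = 0.0529 to 0.0581). From the low to the high dose it passed for TXN (0.47, adjusted p = 0.0327) and PRDX1 (0.57, adjusted p = 0.00458), where 4.64% of all genes passed. With plates B and C of low-dose B11 left out, neither passed (TXN 0.38, adjusted p = 0.259, and PRDX1 0.53, adjusted p = 0.073). TXN did not pass without low-dose plate B or C of either line, high-dose plate C of THP1 or high-dose plate B or C of B11 (adjusted p = 0.051 to 0.0811). GCLC with the low dose did not pass with all plates (-0.73, adjusted p = 0.134) and passed without low-dose plate C of THP1 (-1.05, adjusted p = 0.0100), where GCLC was at 11.3 FPKM against 22.9 and 22.8 FPKM in plates A and B. The 3 differences of differences share libraries with each other and with the comparisons above.

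**Figure D3:**
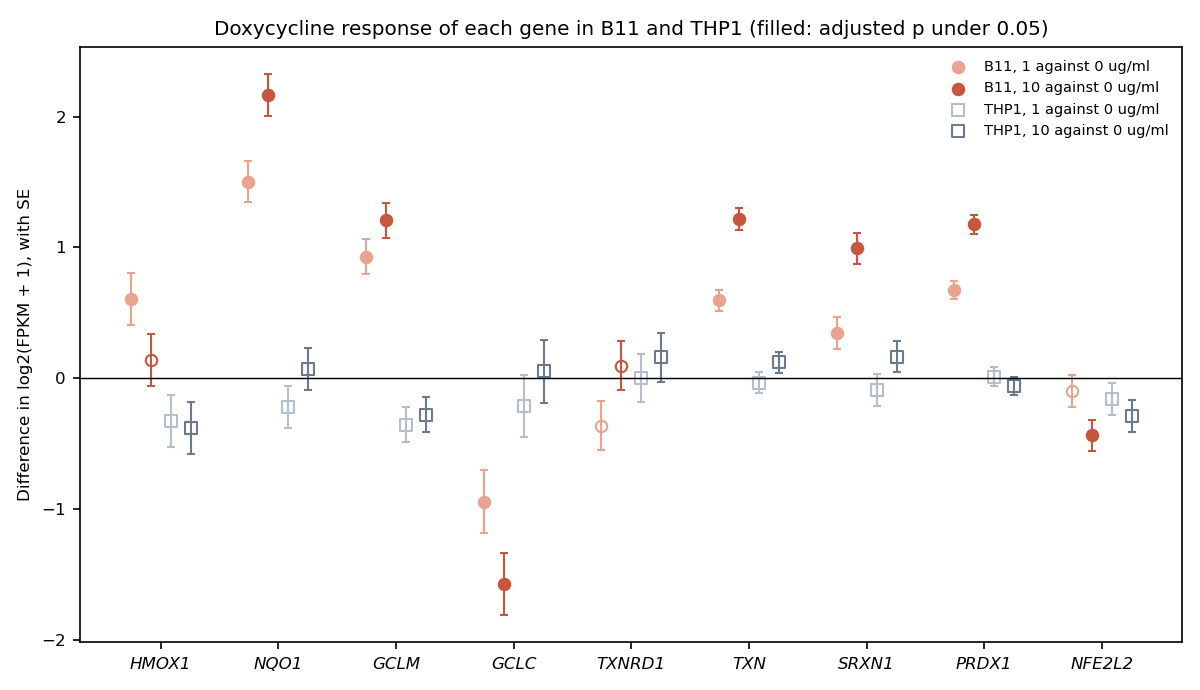
Change from the untreated plates of the same line, as a difference of log2(FPKM + 1) with its standard error from limma, for each of the 9 genes by doxycycline dose in ug/ml. Filled symbols passed at an adjusted p under 0.05: all of them are B11, with NQO1 at 2.17 and GCLC at -1.57 at 10 ug/ml.

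Without doxycycline, B11 and THP1 already differed. TXN, NQO1, GCLM, PRDX1, HMOX1 and SRXN1 were lower in B11 and GCLC was higher, so 7 of the 9 genes passed, 1 higher and 6 lower, where 47.1% of all genes passed (23.5% higher and 23.6% lower). The plates of these 7 do not overlap between the lines, as in 53.3% of all genes. Mean FPKM in B11 was 0.451 times the THP1 mean for TXN, 0.502 times for NQO1, 0.530 times for GCLM, 0.546 times for PRDX1 and 2.12 times for GCLC. In untreated THP1, NQO1 was at 18.8, 22.7 and 19.5 FPKM, GCLM at 19.1, 16.8 and 19.1 FPKM and GCLC at 18.5, 20.3 and 25.2 FPKM. For all 3 genes these plates are separate from those of untreated B11.

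The difference between the lines was -1.14 for TXN (adjusted p = 2.97e-08), -0.93 for NQO1 (adjusted p = 0.000192), -0.87 for PRDX1 (adjusted p = 1.14e-07) and -0.85 for GCLM (adjusted p = 9.35e-05). For GCLC it was 1.06 (adjusted p = 0.0019). HMOX1 (-0.57, adjusted p = 0.0282) and SRXN1 (-0.32, adjusted p = 0.0405) passed more narrowly. HMOX1 did not pass without untreated plate B or C of either line (adjusted p = 0.0655 to 0.109). SRXN1 did not pass when any 1 untreated plate, or low-dose plate C or high-dose plate A of B11, was left out (adjusted p = 0.0507 to 0.132). TXNRD1 and NFE2L2 did not pass. The untreated B11 plates are those of the dose comparison, so a level low here is the base of each rise above and the 2 results are not independent.

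At the low dose, NQO1 and GCLM were higher and TXN and PRDX1 lower in B11, so 4 of 9 passed, where 29.8% of all genes passed. PRDX1 was at 577, 584 and 583 FPKM in THP1 at this dose, and its difference was -0.21 (adjusted p = 0.0382). GCLM differed by 0.43 (adjusted p = 0.0247). The plates of these 4 genes do not overlap between the lines, as in 43.5% of all genes. With plate A alone for B11 at the low dose, NQO1 and TXN passed. The count was also 2 when THP1 plate B or C, or B11 plate B, at this dose was left out. GCLM was lost in these 3 fits (adjusted p = 0.059 to 0.122), and PRDX1 was lost when any 1 plate at this dose was left out (adjusted p = 0.0554 to 0.119).

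At the high dose, NQO1, GCLM, SRXN1 and PRDX1 were higher in B11 than in THP1 and 0 of the 9 were lower, where 32.4% of all genes passed. NQO1 differed by 1.16 (adjusted p = 4.86e-05), GCLM by 0.64 (adjusted p = 0.00191), SRXN1 by 0.50 (adjusted p = 0.00483) and PRDX1 by 0.36 (adjusted p = 0.00103). TXN, at a mean of 363 FPKM in B11 and 375 FPKM in THP1, did not pass (-0.05, adjusted p = 0.719). GCLC was below THP1 in all 3 plates, with a difference of -0.57 that did not pass (adjusted p = 0.0855), and passed without low-dose plate C of THP1 (adjusted p = 0.0236). TXNRD1 passed at this dose without plate B of THP1 (0.48, adjusted p = 0.0498). Including GCLC, the plates of 5 of the 9 genes do not overlap between the lines, as in 44.5% of all genes.

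Over the 18 libraries, TXN and PRDX1 varied together most closely among the 9 genes (Pearson r = 0.918 on the log2 scale), followed by NQO1 and GCLM (0.907). GCLC ran against PRDX1 (-0.824), TXN (-0.755) and GCLM (-0.693). The libraries share lines and doses, so these values describe the group means above all. Among 9444 other protein-coding genes with a mean of at least 5 FPKM, the gene most like NQO1 was MDH2 (r = 0.953), followed by CETN3 (0.952). For PRDX1 the closest were NEK6 (0.979) and HSP90AA1 (0.975), and for TXN PNP (0.978) and HSP90AA1 (0.973). HSP90AA1, a cytosolic chaperone, had group means of 208, 381 and 557 FPKM in B11 at 0, 1 and 10 ug/ml and 494, 485 and 494 FPKM in THP1.

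The genes closest to SRXN1 were PTGR1 (0.950), a reductase, and CRYZ (0.931), a quinone reductase. PTGR1 had means of 18.8, 27.1 and 46.0 FPKM in B11 and 24.0, 25.7 and 27.1 FPKM in THP1. GCLM was closest to NOMO1 (0.909) and MRPL12 (0.906), and GCLC to SLC8B1 (0.893) and ACAA1 (0.874). ACAA1, a peroxisomal thiolase, had means of 98.4, 64.8 and 50.2 FPKM in B11. The genes closest to HMOX1 (DHX36, 0.814, and C1orf43, 0.798), TXNRD1 (ZNF720, 0.791, and JKAMP, 0.761) and NFE2L2 (NCSTN, 0.857, and PHACTR1, 0.825) were less alike.

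Other genes around NRF2 were followed in lists by role, and their counts in B11 with the high dose stand beside the 42.8% of all genes that passed (21.6% higher and 21.3% lower). Of 10 regulators of NRF2, 2 rose and 1 fell with the high dose in B11, a smaller share than the 42.8% of all genes, with a median change of 0.11. MAFF, a small MAF partner of NRF2, was at 0.188, 0.366 and 0.342 FPKM in untreated B11 and 4.56, 6.60 and 3.95 FPKM at the high dose. It rose by 2.20 (adjusted p = 8.32e-08), on a scale that understates changes of genes this low. RBX1, a subunit of the ubiquitin ligase that KEAP1 serves, rose by 0.63 (adjusted p = 0.000415), and SQSTM1, the autophagy receptor that binds KEAP1, fell by 0.39 (adjusted p = 0.0141). KEAP1 differed by 0.13 and did not pass (adjusted p = 0.355). It was at 108, 80.8 and 101 FPKM in untreated B11, 129, 122 and 120 FPKM at the low dose and 98.0, 111 and 107 FPKM at the high dose. In untreated THP1 it was at 136, 134 and 129 FPKM. The untreated B11 plates lie below both the low-dose and the untreated THP1 plates, where 47.5% and 53.3% of all genes do not overlap.

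Of 11 genes of glutathione synthesis and use other than the ligase subunits, 10 were tested, and 4 rose and 2 fell, against 21.6% and 21.3% of all genes, with a median of 0.21. GSS, the synthetase that completes glutathione after the ligase, was at 29.6, 27.6 and 30.3 FPKM in untreated B11 and 51.8, 51.7 and 57.1 FPKM at the high dose, and rose by 0.85 (adjusted p = 2.03e-07). SLC3A2, the partner chain of the cystine carrier, rose by 1.14 (adjusted p = 9.38e-06), from 117, 136 and 78.2 FPKM to 236, 250 and 231 FPKM. It was higher at the low dose, at 349, 371 and 340 FPKM. In THP1, SLC3A2 was at 191, 176 and 170 FPKM without doxycycline and 230, 267 and 227 FPKM at the high dose, without overlap. There, 0 of the 10 genes passed with the high dose, where 1.02% of all genes passed. An unadjusted p under 0.05 (limma) was found for 5 of them. The share of all genes under that threshold is not given here, so this count has no reference rate. MGST3, a microsomal glutathione transferase, rose in B11 by 0.46 (adjusted p = 3.1e-05). GPX1, which uses glutathione to reduce peroxide, fell by 0.57 (adjusted p = 4.37e-06).

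All 6 genes of NADPH supply were tested, and 4 rose and 0 fell, against 21.6% and 21.3% of all genes, with a median of 0.31. ME1, the cytosolic malic enzyme, was at 3.68, 4.75 and 4.70 FPKM in untreated B11 and 16.4, 17.8 and 18.9 FPKM at the high dose, and rose by 1.80 (adjusted p = 2.61e-08). PGD rose by 0.43 (adjusted p = 0.0145) and TKT, a transketolase, by 0.20 (adjusted p = 0.0207). Unlike NQO1 or TXN, none of these 6 was lower in untreated B11 than in untreated THP1, where 4 were higher, against 23.5% of all genes.

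Of 7 genes of iron and haem handling, 1 rose and 2 fell, a share near the 42.8% of all genes, with a median of -0.06. FTH1, the heavy chain of ferritin, was at 1048, 1021 and 1135 FPKM in untreated B11 and 855, 943 and 757 FPKM at the high dose, and fell by 0.33 (adjusted p = 0.00727). It also fell in THP1, by 0.77 (adjusted p = 0.000635), the single gene of these 5 lists called there at the high dose. BLVRB, which reduces biliverdin, fell by 0.65 (adjusted p = 0.000256) in B11, and SLC48A1, a haem transporter, rose by 0.47 (adjusted p = 0.035).

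Of 15 genes of detoxification and export, 13 were tested, and 9 rose and 3 fell, against 21.6% and 21.3% of all genes, with a median of 0.76. AKR1C2, an aldo-keto reductase, was at 0.409, 0 and 0.692 FPKM in untreated B11 and 621, 644 and 626 FPKM at the high dose, and rose by 8.88 (adjusted p = 4.85e-12). AKR1C3 was at 1.54, 0 and 0 FPKM and then at 60.4, 56.7 and 57.0 FPKM. AKR1C1 was listed at 0 in all untreated B11 plates and was at 32.8, 28.1 and 78.7 FPKM at the high dose. These 3 are near-identical copies, and how reads were split between them is uncertain, yet they count as separate genes among the 9 that rose. AKR1C2 did not exceed 3.85 FPKM in any THP1 plate. CBR1, a carbonyl reductase, was at 6.31, 6.93 and 6.37 FPKM in untreated B11 and 21.2, 17.6 and 22.2 FPKM at the high dose, and rose by 1.49 (limma, adjusted p = 1.16e-07).

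Across these lists the change in B11 exceeded that in THP1, with an adjusted p under 0.05, for 2 regulators, 3 glutathione genes, 3 NADPH genes, 1 iron gene and 5 detoxification genes. It was below that in THP1 for 2 glutathione genes and 0 in each of the other 4 lists. The counts are read beside the 29.8% of all genes given above.

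**Figure D4:**
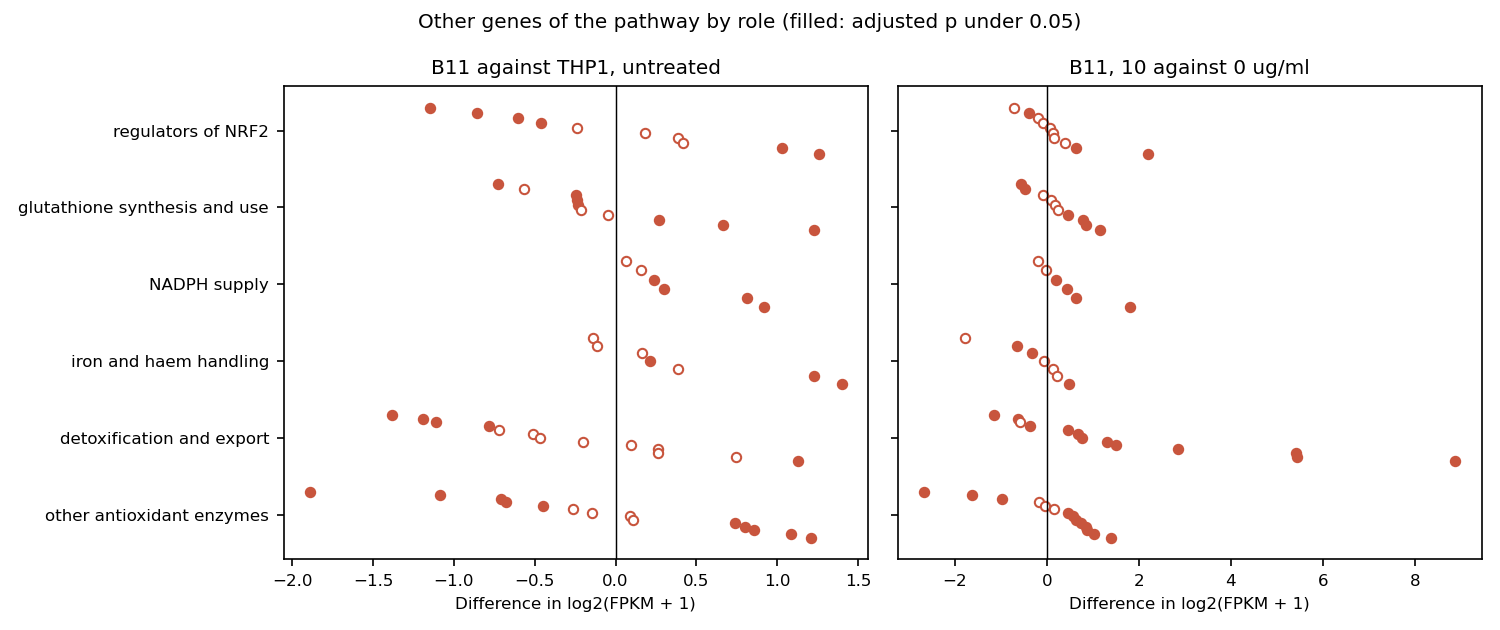
Difference in log2(FPKM + 1) for each tested gene of the 5 lists above and of a list of other antioxidant genes that includes TXNIP, between untreated B11 and THP1 (left) and between B11 at 10 and 0 ug/ml doxycycline (right). Each point is a gene and filled points passed at an adjusted p under 0.05. On the right the highest points are the AKR1C genes, with AKR1C2 at 8.88.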

How the data were processed

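RNA from 18 cultures was sequenced, and 1 table of FPKM values per gene was deposited by the authors. HISAT2, Cuffnorm and GRCh38 are named per the submitters' processing notes, without versions. The unit FPKM was read from the tool and the values, while its annotation, strand setting and read numbers are not stated in the labels. FPKM values carry no read numbers, so absolute depth is unknown; relative depth, from the steps between low values of 6577 genes, spans 1.44 times.

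GENCODE 29 named 57047 of the 60658 identifiers, and positions are from it. Genes reaching 1 FPKM in 3 or more libraries were kept. On log2(FPKM + 1), limma 3.58.1 (R 4.3.3) was fitted to 6 group means with an intensity trend and 12 residual degrees of freedom, for 12 comparisons, each with Benjamini-Hochberg adjustment over 17555 genes. Fold changes on this scale understate changes of low genes. The code was tested on simulated data. Plate letters were checked for pairing: the correlation of same-letter deviations ran from -0.0705 to 0.0923 over 45 pairs, so letters were not used as pairs.

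The 9 genes and the lists were chosen with earlier results of these data known. Named beside them are NRAS, up to 4 called genes per list with the smallest p in B11 at 10 against 0 ug/ml, the AKR1C copies, and for each of the 9 the 2 genes with the highest Pearson r. The group means given for HSP90AA1, PTGR1 and ACAA1, and the genes CD68, MRC1, CD163, KEAP1 and the monocytic markers named, were chosen after their values were seen. A gene that this rule names is not reported here. Alternatives were another pseudocount (0.1), no filter, a mean of at least 5 FPKM, median-of-ratios scaling, TPM scaling, no trend, a fit to the compared groups alone, a replicate block, and leaving out libraries.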

Additional observations from a re-analysis of the deposited data

Results flagged for a closer look

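Each result here is a dose change in B11 minus the dose change in THP1, on the log2(FPKM + 1) scale, that passed limma's test of that difference. From 0 to 10 ug/ml these were NQO1 (2.09), GCLM (1.49), PRDX1 (1.24), TXN (1.10), SRXN1 (0.83) and GCLC (-1.63). From 0 to 1 ug/ml they were NQO1 (1.72), GCLM (1.28), HMOX1 (0.93), PRDX1 (0.66) and TXN (0.63). From 1 to 10 ug/ml they were PRDX1 (0.57) and TXN (0.47). GCLC is the single gene of these with the smaller value in B11, and the other subunit gene of the same enzyme, GCLM, has the opposite sign.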

How the results depend on the processing

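The 9 genes and 12 comparisons give 108 values, of which 46 passed; over 2904 alternative values 70 lost and 8 gained the call and 0 called values changed sign. The count of the 9 genes from 1 to 10 ug/ml in B11 against THP1, 2, was 1 with no filter, with no intensity trend, with only the compared groups and with the replicate block, and 0 with plates B and C of the low-dose B11 group left out (limma; 814 genes passed in the whole table and 232 without them). Without those libraries, which leaves 1 plate assumed to vary like the others, the counts were 4 in B11 from 0 to 1 ug/ml (all genes 4071 instead of 6516), 2 from 1 to 10 ug/ml (611 instead of 2249) and 2 between the lines at 1 ug/ml (2704 instead of 5231). Leaving out 1 library at a time gave 2 to 4 between the lines at 1 ug/ml and 1 to 2 for the difference from 1 to 10 ug/ml; 1 was reached without THP1 B or C at 1 ug/ml, THP1 C at 10 ug/ml, or B11 B or C at either dose. From 1 to 10 ug/ml in B11, 1487 and 1482 genes passed without library C at 1 or at 10 ug/ml. In THP1 the 179, 2 and 52 genes called from 0 to 10, 0 to 1 and 1 to 10 ug/ml moved to 46 to 119, 0 to 23 and 11 to 112 under the alternatives that changed them by over 1.5 times. The calls lost most often were TXN from 1 to 10 ug/ml against THP1 (12 of 27 alternatives), SRXN1 between untreated lines (11) and in B11 from 0 to 1 ug/ml (9), PRDX1 between lines at 1 ug/ml (9) and the 3 calls of HMOX1 (6 of 26 each); HMOX1 was not tested at a mean of at least 5 FPKM. With the replicate block, which the pairing check did not call for, SRXN1 lost 2 calls. The number of plates limits what could be called, and absolute depth is unknown.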

Other observations

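A further list outside the NRF2 lists held 14 genes, namely antioxidant genes and TXNIP, an inhibitor of thioredoxin. Of these 14, 8 rose and 3 fell from 0 to 10 ug/ml in B11, where 21.6% of all genes rose and 21.3% fell, with a median change of 0.51. PRDX4, the peroxiredoxin of the endoplasmic reticulum, was at 31.7, 23.7 and 34.4 FPKM in untreated B11 and 74.4, 83.7 and 81.0 FPKM at 10 ug/ml, and rose by 1.40 (limma, adjusted p = 4.6e-08). PRDX2, a cytosolic peroxiredoxin, rose by 1.01 (adjusted p = 1.43e-07). CAT, the peroxisomal catalase, was at 673, 548 and 612 FPKM and then at 182, 188 and 220.0 FPKM, and fell by 1.63 (adjusted p = 3.54e-10). TXNIP, which binds and inhibits thioredoxin, was at 641, 822 and 677 FPKM and then at 117, 111 and 103 FPKM, and fell by 2.67 (adjusted p = 1.52e-11).

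In untreated cells, 5 of the 14 genes were higher and 5 lower in B11 than in THP1, with a median difference of -0.03. Of all genes, 23.5% were higher and 23.6% lower. Among the 4 genes named above, PRDX4 (-1.89, limma, adjusted p = 1.44e-09) and PRDX2 (-1.09, adjusted p = 5.6e-08) were lower in B11. CAT (1.21, adjusted p = 8.07e-09) and TXNIP (1.09, adjusted p = 1.74e-07) were higher. These 4 were named for their small p from 0 to 10 ug/ml in B11, which favours genes whose untreated B11 level stands apart. In THP1, 0 of the 14 genes passed limma's test from 0 to 10 ug/ml, where 1.02% of all genes passed. An unadjusted p under 0.05 was found for 3 of them, and the share of all genes under that threshold is not given here. The 2 comparisons in B11 share its untreated plates.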
